A study of Mus musculus with 6 samples.

Results

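Major histocompatibility complex (MHC) class I antigen presentation was followed through 8 genes of the deposited table, taken by gene symbol from the 22706 genes it holds: the light chain B2m, the heavy chains H2-K1, H2-D1 and H2-T23, the peptide transporter subunits Tap1 and Tap2, the loading factor Tapbp (tapasin) and the transcriptional regulator Nlrc5. All 8 were found, each in 1 row, and all passed the minimum mean value of 5 that was set for testing. RNA had been sequenced from freshly isolated muscle stem cells (MuSCs), the cells that repair skeletal muscle, of 3 groups of mice with 2 libraries each, which the methods call biological replicates. The control mice were wild type. The mdx mice lack functional dystrophin through a point mutation in Dmd and model Duchenne muscular dystrophy. The Sirt6mKO/mdx mice carry the same mutation and a Sirt6 gene whose floxed exons are removed by a Cre recombinase. Sirt6 encodes a histone deacetylase of the sirtuin family. The Cre is driven constitutively by the Pax7 promoter, so the deletion acts in the whole Pax7 lineage and is not limited to the adult stem cell. The labels give the strain of all libraries as C57BL/6, whereas the methods name C57BL/10ScSn-Dmdmdx/J as the source of the mdx mice and the supplement states a C57BL/6 background and littermate controls throughout. The labels give neither age nor sex, while legends to plots of these RNA data in the study name male mice, with ages that differ between legends. The number of animals per library is not given. Cells positive for Sca1, CD45 or CD31 had been removed before sorting. The methods list a sort for Integrin-a7 and CD34 and sorts for a GFP or YFP reporter of Pax7, without saying which gave these libraries.

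Class I molecules carry peptides from the cytosol to the cell surface, where CD8 T cells and natural killer cells read them. A heavy chain folds with the light chain in the endoplasmic reticulum, the TAP transporter brings in peptides cut by the proteasome, tapasin holds the empty molecule at the transporter until a peptide is bound, and NLRC5 switches on the heavy chain, light chain and transporter genes together. Resting muscle fibres show little class I on their surface, and inflamed muscle, including dystrophic muscle, shows more.

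The promoters of the 3 most abundant members are shown for the regulatory motifs that they hold. They are the 250 bases before the RefSeq transcript start on GRCm38.p6, written 5′ to 3′ on the strand of the gene. For H2-K1 2 windows were listed, and the first was used throughout. B2m lies at chr2:122147437-122147686 on the plus strand, H2-K1 at chr17:34000348-34000597 on the minus strand and H2-D1 at chr17:35262844-35263093 on the plus strand. The H2-D1 window lies inside the bounds of that gene in the deposited table, which start further upstream. Capitals mark motif matches.
B2m: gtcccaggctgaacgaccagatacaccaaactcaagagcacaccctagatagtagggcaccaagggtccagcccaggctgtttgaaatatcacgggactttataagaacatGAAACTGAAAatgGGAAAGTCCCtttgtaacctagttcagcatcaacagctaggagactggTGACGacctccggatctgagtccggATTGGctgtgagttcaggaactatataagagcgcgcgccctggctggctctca
H2-K1: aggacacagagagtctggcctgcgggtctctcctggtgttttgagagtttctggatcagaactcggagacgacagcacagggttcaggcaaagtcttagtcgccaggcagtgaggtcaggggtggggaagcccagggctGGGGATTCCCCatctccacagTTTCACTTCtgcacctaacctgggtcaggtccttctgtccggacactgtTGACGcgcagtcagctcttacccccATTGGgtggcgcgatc
H2-D1: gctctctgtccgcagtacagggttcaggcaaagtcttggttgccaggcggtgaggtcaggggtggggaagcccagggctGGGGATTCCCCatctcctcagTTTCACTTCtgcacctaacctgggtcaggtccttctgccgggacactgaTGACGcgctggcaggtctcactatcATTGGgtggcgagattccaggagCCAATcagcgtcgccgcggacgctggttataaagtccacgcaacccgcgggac

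Both strands were searched for the NF-kB consensus, for the long interferon response element (TTTC, any 2 bases, TTTC), for a short form of it (TTTC, any 2 bases, TTC), for TGACG (a core of the X2 box bound by CREB and ATF factors) and for CCAAT (bound by NF-Y). These motifs were present in 7.25%, 2.98%, 6.31%, 17.8% and 33.8% of 32851 promoter windows of the same length. The B2m window held the NF-kB consensus, the long interferon element, TGACG and CCAAT, none overlapping another, with the interferon element from -139 to -130 relative to the transcript start. The windows of H2-K1 and H2-D1 each held the NF-kB consensus (2 positions overlapping by all but 1 base, each matching on both strands), the short interferon element, TGACG and CCAAT. In a local alignment, which covered part of each window, these heavy chain windows were identical at 161 of 177 aligned bases (91.0%). They shared an unbroken run of 47 bases across the NF-kB match. Of the other members, H2-T23 held the long interferon element and CCAAT, Tap1 held TGACG and CCAAT, and Tapbp held CCAAT alone among the motifs searched. RefSeq windows were matched for 6 of the 8 members; Tap2 and Nlrc5 had none in the table used.

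The approximate depth, recovered from the pattern of rounding, was 4397665 to 9744233 reads per library. The values are normalized read counts: counts that the authors had divided by a size factor for each library and rounded. Sirt6 itself (ENSMUSG00000034748) had normalized read counts of 41 and 32 in the control, 33 and 40 in the mdx and 37 and 30 in those labelled Sirt6mKO/mdx, so gene-level RNA did not separate the groups. The values cover the whole gene and not the floxed exons alone. The libraries also differed in sex-linked RNA: Xist was 16772 and 12950 in control and between 7 and 34 in the other libraries. Ddx3y was 3 and 8 in control and between 1024 and 1767 in the others, and the Y-linked Eif2s3y and Uty were 0 to 13 in control and 449 to 693 in the others. These values of the control libraries go against the male sex that the legends name. The effect of the mdx genotype and that of sex therefore cannot be told apart in either comparison with control. All 12 MuSC markers were above 0 in every library, with Pax7 at 2754 and 2932 in the control, 2167 and 2521 in the mdx and 3236 and 2433 in the Sirt6mKO/mdx libraries.

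Between genes, levels were compared per kilobase of exonic sequence over all annotated transcripts. B2m was the most abundant member, with a mean of 1964 normalized reads per kb over the 6 libraries, followed by H2-D1 at 539, H2-K1 at 375, Tapbp at 59.6, H2-T23 at 46.4, Tap2 at 23.5, Tap1 at 23.3 and Nlrc5 at 5.91. H2-D1 stood above H2-K1 in each of the 6 libraries on this scale, although their ranges over libraries overlapped. The order depends in part on the exonic lengths used, 2579 bases for H2-D1 and 2938 for H2-K1. In control replicate 2 the count itself was higher for H2-K1 (1459 against 1417). Tapbp and H2-T23 changed places in Sirt6mKO/mdx replicate 1, and Tap1 and Tap2 did not differ beyond their spread. Nlrc5, with as few as 15 approximate reads in a library, was the least precisely measured member. Counting error alone gave its lowest value a coefficient of variation of 25.8%.

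**Figure D1:**
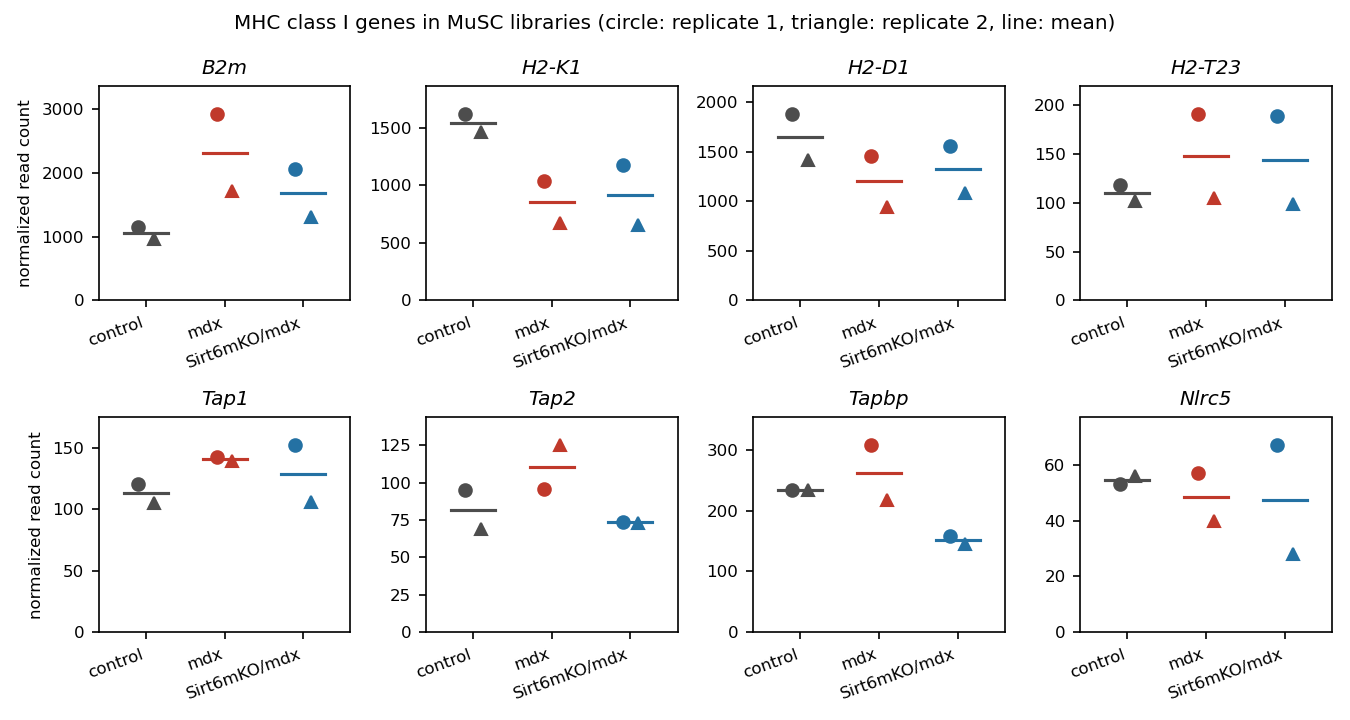
Normalized read counts of the 8 members by group; each circle is replicate 1, each triangle replicate 2 and each line the mean of the 2, with every vertical axis starting at 0. B2m lies between 970 and 1151 in control and between 1714 and 2924 in mdx, while H2-K1 lies between 1459 and 1618 in control and between 670 and 1039 in mdx.

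B2m encodes beta-2 microglobulin, the light chain that every class I heavy chain needs for folding and surface export. The gene (ENSMUSG00000060802, GRCm38 chr2:122147686-122153083, plus strand) had normalized read counts of 1151 and 970 in the control, 2924 and 1714 in the mdx and 2068 and 1305 in the Sirt6mKO/mdx libraries. Both mdx libraries and both Sirt6mKO/mdx libraries lay above both control libraries, and the ranges of mdx and Sirt6mKO/mdx overlapped. The group means were 1060.5 ± 128, 2319 ± 856 and 1686.5 ± 540 (SD, n = 2). B2m rose in mdx against control by 1.08 on the log2 scale (SE 0.31, 95% interval 0.42 to 1.74, adjusted p = 0.0267), where a gene counted as called at an adjusted p of at most 0.05 and a change of at least 1. The log2 difference from mdx to Sirt6mKO/mdx was -0.45 (adjusted p = 0.400), and that from control to Sirt6mKO/mdx was 0.64 (95% interval -0.02 to 1.30, adjusted p = 0.226), or 0.03 when libraries were scaled to equal totals (adjusted p = 0.956). The call in mdx rested on single libraries. The log2 change was 0.70 without mdx replicate 1 (adjusted p = 0.296), 0.96 without control replicate 2 (adjusted p = 0.121) and 1.21 without control replicate 1 (adjusted p = 0.0684). The adjusted p was 0.0550 without Sirt6mKO/mdx replicate 2. Over the 18 alternatives, of which 6 lost the call, the adjusted p ran from 0.0053 to 0.296, and the direction was the same in each.

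H2-K1 and H2-D1 encode the classical heavy chains, which present peptides to CD8 T cells. H2-K1 (ENSMUSG00000061232, chr17:33996017-34000333, minus strand) had normalized read counts of 1618 and 1459 in the control, 1039 and 670 in the mdx and 1178 and 652 in the Sirt6mKO/mdx libraries. All 4 dystrophic libraries lay below both control libraries. The difference between mdx and control was -0.88 on the log2 scale (SE 0.31, 95% interval -1.53 to -0.23), which had an unadjusted p of 0.0113 in limma and missed the call with an adjusted p of 0.0615. It stayed below 0 and uncalled in all 18 alternatives, where the adjusted p ran from 0.0243 to 0.372. With equal upper quartiles, a robust prior or a replicate block the adjusted p was below 0.05, and the change fell short of the minimum of 1. Between Sirt6mKO/mdx and control the difference was -0.81 (unadjusted p = 0.0181 in limma, adjusted p = 0.117), and between Sirt6mKO/mdx and mdx it was 0.07 (95% interval -0.58 to 0.72).

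H2-D1 (ENSMUSG00000073411, chr17:35262730-35267499, plus strand) had normalized read counts of 1879 and 1417 in the control, 1459 and 945 in the mdx and 1558 and 1083 in the Sirt6mKO/mdx group. The ranges of all 3 groups overlapped. Its log2 difference between mdx and control was -0.47 (SE 0.29, 95% interval -1.10 to 0.15, adjusted p = 0.291). Both heavy chain genes share sequence with other class I genes. Of the distinct 50-base words of their transcripts, 9.63% (H2-K1) and 12.8% (H2-D1) also occur in transcripts of other genes. Reads from such stretches were left out where they mapped to several places.

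The log2 difference of B2m between mdx and control had the opposite sign to those of H2-K1 and H2-D1. Ratios within a library do not depend on the scaling of libraries. They were formed from counts without division by gene length, so they compare groups and do not give levels between genes. Per kb, the control means were 1233 for B2m, 524 for H2-K1 and 639 for H2-D1. Between groups the ratios show how B2m shifted relative to the heavy chains but not the direction of either. These ratios were formed after the values had been seen and are given as a description, with no test. The ratio of B2m to the sum of H2-K1 and H2-D1 was 0.329 and 0.337 in the control, 1.17 and 1.06 in the mdx and 0.756 and 0.752 in the Sirt6mKO/mdx libraries. No 2 groups overlapped in this ratio, and both dystrophic groups lay above control. Its mean was 3.35 times the control mean in mdx and 2.26 times in Sirt6mKO/mdx, and the Sirt6mKO/mdx mean was 0.676 times the mdx mean. Between the mdx libraries both heavy chains differed in the same direction as B2m, so these ratios were closer to each other than the values themselves. The ratio of H2-K1 to H2-D1 was 0.861 and 1.03 in the control, 0.712 and 0.709 in the mdx and 0.756 and 0.602 in the Sirt6mKO/mdx libraries, so it was lower in all 4 dystrophic libraries.

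**Figure D2:**
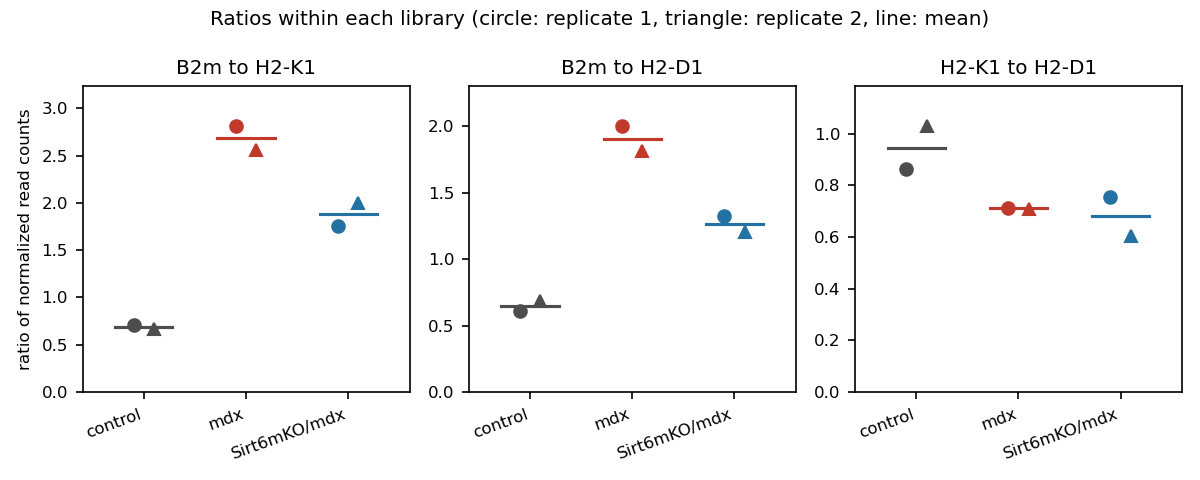
Ratio of normalized read counts within each library for B2m to H2-K1, B2m to H2-D1 and H2-K1 to H2-D1, by group; circles are replicate 1, triangles replicate 2 and lines the mean of the 2. The mean ratio of B2m to H2-K1 is 0.688 in control, 2.69 in mdx and 1.88 in Sirt6mKO/mdx, and that of B2m to H2-D1 is 0.649, 1.91 and 1.27.

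H2-T23 encodes a nonclassical heavy chain that presents leader peptides of other class I molecules to receptors of natural killer cells. Its normalized read counts (ENSMUSG00000067212, chr17:36029773-36032855, minus strand) were 118 and 102 in the control, 191 and 105 in the mdx and 189 and 99 in the Sirt6mKO/mdx libraries. In both dystrophic groups 1 library lay near control and 1 lay above it. The log2 difference from control to mdx was 0.37 (SE 0.38, adjusted p = 0.554), and 13.6% of its 50-base words are shared with other genes.

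Tap1 and Tap2 encode the subunits of the transporter that moves peptides into the endoplasmic reticulum. Tap1 (ENSMUSG00000037321, chr17:34187553-34197225, plus strand) had normalized read counts of 121 and 105 in the control, 143 and 139 in the mdx and 152 and 106 in the Sirt6mKO/mdx libraries. Tap2 (ENSMUSG00000024339, chr17:34203527-34216321, plus strand) had 95 and 69 in the control, 96 and 125 in the mdx and 74 and 73 in the Sirt6mKO/mdx libraries. For both genes the mdx libraries lay above the control libraries, for Tap2 by a margin of 96 against 95. The log2 differences between mdx and control were 0.32 for Tap1 (SE 0.32, adjusted p = 0.535) and 0.43 for Tap2 (SE 0.36, adjusted p = 0.451). Between Sirt6mKO/mdx and mdx, Tap2 differed by -0.57 (adjusted p = 0.352). Tap1 shares 212 exonic bases with Psmb9 on the other strand. Reads on several genes were left out, and the use of strand in counting was not stated. Whether reads there were counted is therefore not known. Tap2 likewise shares exonic bases with Gm20496 and Gm15821.

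Tapbp, which encodes tapasin, was the member with the lowest unadjusted p between the dystrophic groups. It had normalized read counts of 234 and 235 in the control, 308 and 218 in the mdx and 158 and 145 in the Sirt6mKO/mdx libraries (ENSMUSG00000024308, chr17:33915899-33929288, plus strand). Both Sirt6mKO/mdx libraries lay below all other libraries. The log2 difference was -0.77 between Sirt6mKO/mdx and mdx (SE 0.28, 95% interval -1.37 to -0.18, unadjusted p = 0.0143 in limma, adjusted p = 0.0979) and -0.63 between Sirt6mKO/mdx and control (95% interval -1.22 to -0.03, adjusted p = 0.182), and neither was called. Tapbp shares 149 exonic bases with Zbtb22 on the same strand, where reads on both genes were left out. It shares 904 with Gm19412 on the other strand, where whether reads were counted is not known. The length used per kb includes these bases, so part of its value is uncertain.

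Nlrc5 encodes the transactivator of class I genes, which acts with factors bound at the X and Y boxes of their promoters. Its normalized read counts (ENSMUSG00000074151, chr8:94472763-94527272, plus strand) were 53 and 56 in the control, 57 and 40 in the mdx and 67 and 28 in the Sirt6mKO/mdx group. The ranges of all groups overlapped. The log2 differences were -0.19 between mdx and control (95% interval -1.25 to 0.88) and -0.14 between Sirt6mKO/mdx and mdx (95% interval -1.20 to 0.93), so that the intervals reach 2-fold lower values and come close to 2-fold higher ones.

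**Figure D3:**
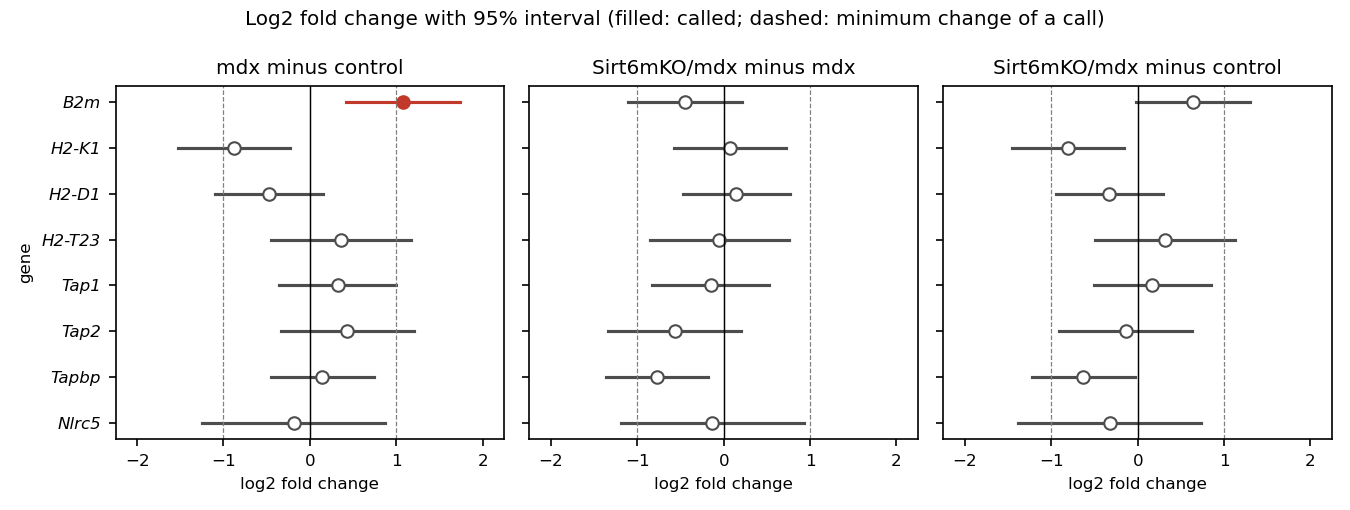
Log2 fold change of the 8 members in the 3 comparisons with 95% intervals from limma; filled points are called and dashed lines mark a change of 1, the minimum for a call. B2m in mdx against control, at 1.08, is the filled point, and the intervals of H2-K1 against control in mdx (-1.53 to -0.23) and in Sirt6mKO/mdx (-1.46 to -0.16) do not reach 0, nor do those of Tapbp in Sirt6mKO/mdx against mdx (-1.37 to -0.18) and against control (-1.22 to -0.03).

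In mdx against control 1 of the 8 members was called, beside 14.2% of all 15915 tested genes (6.89% higher, 7.34% lower). In Sirt6mKO/mdx against mdx 0 of 8 were called, beside 8.17% (5.62% higher, 2.54% lower), and in Sirt6mKO/mdx against control 0 of 8, beside 7.87% (5.19% higher, 2.68% lower). At an unadjusted p under 0.05 in limma, 2, 1 and 2 members passed, beside 31.0%, 25.2% and 24.1% of all genes. Values of the 2 groups compared were fully separated for 4 members in mdx against control (B2m, Tap1 and Tap2 higher, H2-K1 lower), for 2 in Sirt6mKO/mdx against mdx and for 3 in Sirt6mKO/mdx against control, beside 57.0%, 56.0% and 51.6% of all genes. The median log2 difference of the members was 0.23, -0.14 and -0.23 in the 3 comparisons, against 0.0007, 0.023 and 0.0059 over all genes. The shares of members are thus near or below those of all genes. When all libraries were scaled to equal totals, the median of all genes moved to -0.59 in both comparisons of Sirt6mKO/mdx, and B2m, Tap2 and Tapbp were then called lower in Sirt6mKO/mdx against mdx, and H2-K1 and Tapbp lower against control.

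Within groups the members also moved with the library. For 5 of the 8 (B2m, H2-K1, H2-D1, H2-T23 and Tap1) the library numbered 1 was the higher one in all 3 groups, which was so for 12.1% of all tested genes, although the numbers do not pair libraries. Of 12 markers of fibro-adipogenic cells, which lie beside MuSCs in muscle, the library numbered 1 was the higher for 11 in mdx and 9 in Sirt6mKO/mdx, and for 4 in control. Pdgfra was 15 and 59 in the control, 195 and 18 in the mdx and 142 and 19 in the Sirt6mKO/mdx libraries. Ly6a, which encodes the Sca1 antigen of cells removed before the sort, was 3 and 9, 79 and 21, and 65 and 15. The 12 fibro-adipogenic markers summed to 29550 and 36254 in the control, 50970 and 42133 in the mdx and 28871 and 37649 in the Sirt6mKO/mdx libraries, with Col3a1 the highest in each, and none was at 0. In Sirt6mKO/mdx this sum thus ran in the opposite order to Pdgfra and Ly6a. Of the leukocyte markers 20 of 23 were in the table, with sums of 178 to 227 in the control, 161 to 178 in the mdx and 291 to 307 in the Sirt6mKO/mdx libraries. Ptprc, which encodes CD45, was 0 in both control libraries, 5 and 3 in mdx and 3 and 19 in Sirt6mKO/mdx. Lyz2 was 0 and 14, 47 and 26, and 39 and 67. The 12 endothelial markers summed to between 1408 and 2076, with Cd34, which MuSCs also express, the highest at 826 to 1262. Markers called in mdx against control were Lyz2 (log2 change 3.22) and Cd68 (-1.60) of the leukocyte list, Kdr (-3.11) and Pecam1 (-2.05) of the endothelial list, Col1a2 (4.25), Ly6a (2.73) and Col1a1 (1.40) of the fibro-adipogenic list and Sdc4 (-2.69) of the MuSC list. The call was lost in 13 of 17 alternatives for Kdr, 10 of 17 for Lyz2, 6 of 17 for Ly6a, 6 of 18 for Cd68, 4 of 18 for Pecam1 and 1 of 18 for Col1a1. The 2 leukocyte and the 2 endothelial calls all went to 0 without control replicate 1 or mdx replicate 1, and the leukocyte calls also without mdx replicate 2. In Sirt6mKO/mdx against control the called markers were Lyz2 (3.75, lost in 10 of 15 alternatives), Col1a2 (3.17, lost in 1 of 16) and Sdc4 (-1.31, lost in 4 of 16, among them those without either Sirt6mKO/mdx library). In Sirt6mKO/mdx against mdx they were Col1a1 (-1.08) and Sdc4 (1.37), each lost in 6 of 16. Class I genes are active in these cell types too, and the part of these cells in the values of the members was not tested. In bulk RNA, fewer cells of a type and less RNA per cell cannot be told apart.

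Other class I and class I-like genes, 13 of which could be tested of 17 in the table, gave 1 call up and 1 call down in mdx, a share near the 14.2% of all genes. Mr1, which presents vitamin metabolites to mucosal T cells, had normalized read counts of 12 and 35 in the control, 147 and 97 in the mdx and 42 and 89 in the Sirt6mKO/mdx libraries, and rose in mdx by 2.48 on the log2 scale (SE 0.54, adjusted p = 0.0062). The rise of Mr1 was 1.74 and uncalled without control replicate 1, and 2.18 and uncalled without mdx replicate 1. H2-Q4, a nonclassical heavy chain gene whose promoter resembles that of H2-D1 (80.9% of 246 aligned bases), had 609 and 409 in the control, 197 and 195 in the mdx and 300 and 238 in the Sirt6mKO/mdx libraries. H2-Q4 fell in mdx by 1.34 on the log2 scale (SE 0.27, adjusted p = 0.0039), in the same direction as the uncalled differences of H2-K1 and H2-D1. As many as 21.8% of its 50-base words are shared with other genes. H2-Q6 had 142 and 123 in the control, 50 and 26 in the mdx and 116 and 9 in the Sirt6mKO/mdx libraries and was not called in mdx (adjusted p = 0.125). The median log2 difference of this list in mdx was 0.04.

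Among 11 genes of folding, loading and trimming, 1 was called higher and 1 lower in mdx, and 1 higher and 4 lower in Sirt6mKO/mdx against mdx. Of all genes 14.2% were called in mdx (6.89% higher, 7.34% lower) and 8.17% between the dystrophic groups (5.62% higher, 2.54% lower). Both comparisons share the mdx libraries, so their values are given side by side. Pdia3, the disulfide isomerase of the loading complex that pairs with tapasin, had 518 and 1167 in the control, 2159 and 1689 in the mdx and 803 and 715 in the Sirt6mKO/mdx libraries. Its log2 change was 1.30 in mdx against control (adjusted p = 0.0136) and -1.33 in Sirt6mKO/mdx against mdx (adjusted p = 0.0200). Over the alternatives the rise of Pdia3 in mdx ran from 0.71 to 1.88, and its call was lost in 5 of 18. Canx (calnexin, the chaperone of new heavy chains) had 1444 and 2918, 4044 and 3753, and 1220 and 1899. Its log2 change was -1.36 from mdx to Sirt6mKO/mdx (adjusted p = 0.0229). Hspa5, the general chaperone of the endoplasmic reticulum, went the other way, with 9192 and 16521 in the control, 2727 and 2648 in the mdx and 9640 and 7307 in the Sirt6mKO/mdx libraries. Its log2 changes were -2.20 (adjusted p = 0.0012) and 1.64 (adjusted p = 0.0157). The 5 calls between the dystrophic groups fell to 0 when any 1 of the 4 mdx or Sirt6mKO/mdx libraries was left out. The list's calls in mdx went from 2 to 5 without control replicate 2 and to 1 without control replicate 1, mdx replicate 1 or mdx replicate 2. The 5 genes of the immunoproteasome and its activator had 0 calls in each comparison, with 2, 1 and 1 at an unadjusted p under 0.05 in limma, beside 31.0%, 25.2% and 24.1% of all genes. Psmb8 had 30 and 19 in the control, 45 and 51 in the mdx and 73 and 63 in the Sirt6mKO/mdx group. In Sirt6mKO/mdx against mdx it was the 1 gene of this list with a log2 difference above 0 (0.49). The other 4 lay below 0, and the list median was -0.45. In mdx against control 4 of the 5 genes lay above 0, with a list median of 0.72. When single libraries were left out, 1 gene of the immunoproteasome list was called in mdx without control replicate 2, and 1 in Sirt6mKO/mdx against control without control replicate 1. The 4 constitutive proteasome genes set beside them also had 0 calls, with 1, 0 and 1 at that unadjusted p.

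The regulators known to act on class I promoters were 19 genes, of which 0 were called higher and 5 lower in mdx, beside 7.34% of all genes called lower, and 3 were called higher and 1 lower in Sirt6mKO/mdx against mdx, beside 8.17% called in all. Irf1, an interferon-induced factor that binds the interferon element, had normalized read counts of 1095 and 725 in the control, 219 and 242 in the mdx and 696 and 771 in the Sirt6mKO/mdx libraries. Its log2 changes were -1.95 in mdx (adjusted p = 0.00014) and 1.67 from mdx to Sirt6mKO/mdx (adjusted p = 0.0010). Rela, the NF-kB subunit p65, had 915 and 603, 221 and 223, and 475 and 430. Its log2 changes were -1.74 (adjusted p = 0.0004) and 1.02 (adjusted p = 0.0252). Stat3, a cytokine-activated factor, had 5056 and 3183, 460 and 783, and 3283 and 3317. Its log2 changes were -2.74 (adjusted p = 3.5e-05) and 2.46 (adjusted p = 0.0002). For each of these 3 genes both mdx libraries lay below all other libraries. Nfya, a subunit of the factor that binds CCAAT, had 385 and 545 in the control, 210 and 193 in the mdx and 195 and 203 in the Sirt6mKO/mdx libraries and fell by 1.20 on the log2 scale in Sirt6mKO/mdx against control (adjusted p = 0.0126). That call was lost in 5 of 16 alternatives, among them those without control replicate 2 and without either Sirt6mKO/mdx library. The 5 calls in mdx were 3 without either mdx library, and the 4 calls between the dystrophic groups were 1 or 2 without any 1 of their libraries. The rise of Rela was not called without any 1 of these 4 libraries, nor under equal totals, where it was 0.40.

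The interferon pathway above class I was read at the receptors and at target genes. Among 9 receptor and signalling genes, Ifngr2, the second chain of the interferon gamma receptor, rose in mdx from 39 and 87 to 186 and 151 (log2 change 1.51, adjusted p = 0.0173) and was 96 and 123 in Sirt6mKO/mdx. The call was lost without control replicate 1, where the change was 0.94, and without either mdx library. Socs3, a feedback inhibitor of cytokine signalling, was 2414 and 1821 in the control, 432 and 636 in the mdx and 2693 and 4302 in the Sirt6mKO/mdx libraries. Its log2 changes were -2.00 (adjusted p = 0.0004) and 2.70 (adjusted p = 6.1e-05). Of the interferon-stimulated list 29 genes could be tested; mdx gave 12 calls upward and 1 downward, with a list median of 1.27, beside 6.89% of all genes called upward. Sirt6mKO/mdx against mdx gave 1 upward and 7 downward, with a median of -0.78, beside 2.54% called downward. Ifit1, an inhibitor of foreign RNA translation, was 5 and 27 in the control, 172 and 93 in the mdx and 25 and 22 in the Sirt6mKO/mdx libraries. Its log2 changes were 3.30 (adjusted p = 0.0037) and -2.38 (adjusted p = 0.0381). Over the alternatives the rise of Ifit1 in mdx ran from 2.19 to 4.41, and its call was lost in 3 of 18. The call of its fall from mdx to Sirt6mKO/mdx was lost in 8 of 16. Gbp7, an interferon-induced GTPase, was 39 and 56, 250 and 268, and 93 and 43. Its log2 change was -2.01 from mdx to Sirt6mKO/mdx (adjusted p = 0.0066). Ifit3 was 0 and 2 in the control, 75 and 51 in the mdx and 31 and 2 in the Sirt6mKO/mdx libraries. Cxcl10, a chemokine that draws T cells, was 137 and 113, 17 and 22, and 79 and 99. It was the called gene of the list that fell in mdx (log2 change -2.62, adjusted p = 0.0005), and its change from mdx to Sirt6mKO/mdx was 2.14 (adjusted p = 0.0049). The 13 calls of the list in mdx were 4 without mdx replicate 1 and 8 without mdx replicate 2, and the 8 calls between the dystrophic groups were 0, 1, 3 and 0 without mdx replicate 1, mdx replicate 2, Sirt6mKO/mdx replicate 1 and Sirt6mKO/mdx replicate 2.

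**Figure D4:**
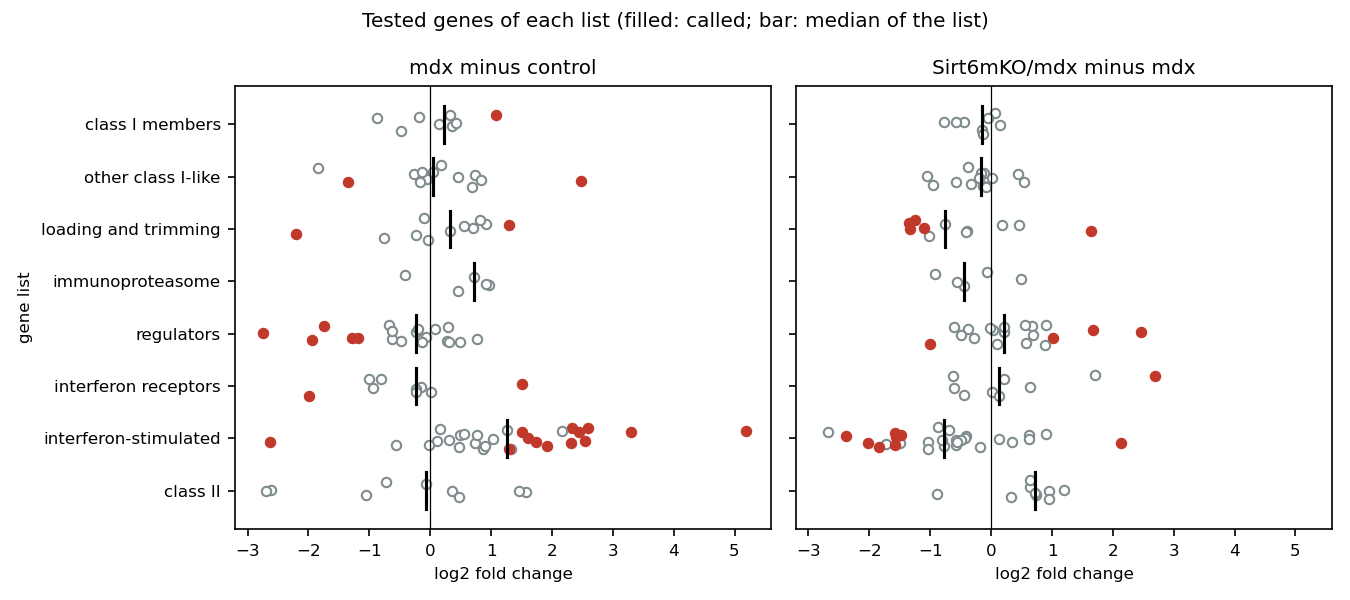
Log2 fold change of each tested gene in the 8 members and 7 related lists, in mdx against control (left) and in Sirt6mKO/mdx against mdx (right); filled points are called and the vertical bars are list medians. The interferon-stimulated list has a median of 1.27 on the left and -0.78 on the right, while the class I members lie between -0.88 and 1.08 on the left and between -0.77 and 0.15 on the right.

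In Sirt6mKO/mdx against control, where 7.87% of all genes were called, there were 0 for the other class I genes, 0 for folding and loading, 0 for the receptors, 1 for the regulators (Nfya) and 1 for the interferon-stimulated genes (Irgm1). Irgm1, an autophagy-linked GTPase, had 222 and 272 in the control, 532 and 313 in the mdx and 630 and 423 in the Sirt6mKO/mdx libraries (log2 change 1.07, adjusted p = 0.0376). At an unadjusted p under 0.05 in limma, 4 of 13 other class I genes, 1 of 11 genes of folding and loading, 5 of 9 receptor and signalling genes, 4 of 19 regulators and 9 of 29 interferon-stimulated genes passed in this comparison, beside 24.1% of all genes. The call of Irgm1 was lost in 11 of 16 alternatives, 2 genes of folding and loading were called without control replicate 1, and 1 other class I gene was called without Sirt6mKO/mdx replicate 1. MHC class II genes, which are expressed mainly by professional antigen presenting cells, were low. Their 10 genes in the table summed to between 93 and 156 in each library. In mdx against control, Sirt6mKO/mdx against mdx and Sirt6mKO/mdx against control, 0 of 9 tested were called, beside 14.2%, 8.17% and 7.87% of all genes. At an unadjusted p under 0.05 in limma 2, 0 and 1 passed, beside 31.0%, 25.2% and 24.1% of all genes.

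Among the 5 genes whose profile over the 6 libraries was most like the mean profile of the members were Adal (Pearson r = 0.97), Sod3 (0.96), Plcl1 (0.96) and Tmem67 (0.95), out of 9658 candidates whose mean value reached 50, among which 17 had r above 0.9. Adal, which encodes an adenosine deaminase-like protein, had normalized read counts of 103 and 86 in the control, 125 and 73 in the mdx and 98 and 41 in the Sirt6mKO/mdx libraries, so that the library numbered 1 was the higher in each group, as for most members. Values of a library enter both sides of such a likeness, and with 6 libraries it is a description.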

How the data were processed

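RNA of FACS-sorted MuSCs was depleted of ribosomal RNA and sequenced on an Ion Torrent instrument. Per the methods and the processing notes of the submitters, reads were trimmed with Reaper, aligned with STAR 2.4.2a to mm10 (GRCm38.p5) and counted per gene with featureCounts 1.4.5-p1, leaving out reads on several genes or places; strand use was not stated. Versions are those of the processing notes; the methods give other versions of the aligner and of the normalization tool. The deposited values are whole numbers of a score type: normalized read counts that the authors had divided by 1 size factor for each library (DESeq2 1.6.0 is named) and rounded. They are not raw counts, so no count model was fitted. Size factors were recovered from skipped and doubled whole numbers, and the recovery returned the factor in 12 of 12 simulated libraries. Value times factor gave 4397665 to 9744233 approximate reads per library, and intervals from reads cover counting error only.

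Linear models were fitted to log2(value + 1) in limma 3.58.1 (R 4.3.3), with a trended prior variance, all 6 libraries, 3 group means and no block, over 15915 genes with a mean of at least 5; p-values are two-sided and Benjamini-Hochberg adjusted over these genes. Fold changes are on the log2(value + 1) scale and understate changes of low genes. Calls needed an adjusted p no higher than 0.05 and an absolute log2 fold change of 1 or more. On data simulated for mdx against control (15970 genes tested) 58.5% of 200 changed genes were called, 19.4% of those changed 2-fold, 71.6% at 4-fold and 84.8% at 8-fold, with 1 false call. Each simulated gene had the median spread of its abundance class. Differences in spread between genes of a class were thus left out, and these figures may be too favourable.

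The 8 members and the 13 other gene lists were chosen with earlier results of these data known. Named were all members and, for each other list and comparison, up to 3 called genes with the largest change, the most abundant markers, the 5 genes most like the members (1 of which is not reported here), Xist and Ddx3y; H2-Q6, Psmb8, Ptprc, Pdgfra, Ly6a and Pax7 were added after their values were seen, as were the ratios. Alternatives changed the pseudocount, filter, scaling, prior, groups fitted, block or libraries. Positions and exons are from GENCODE M21 on GRCm38, which held 98.5% of the gene identifiers; promoters are from RefSeq GRCm38.p6.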

Additional observations from a re-analysis of the deposited data

How the results depend on the processing

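Without the filter on low values, 989, 168 and 221 genes were called in mdx against control, Sirt6mKO/mdx against mdx and Sirt6mKO/mdx against control, in place of 2265, 1300 and 1253, and with 1 prior variance for all genes 541, 0 and 87; under both, 0 members were called in mdx against control. Under equal totals 3416 genes (479 of them higher, in place of 895 of 1300) and 3 members were called in Sirt6mKO/mdx against mdx, and 3148 genes (455 of them higher, in place of 826 of 1253) and 2 members against control; the median of all genes was then -0.59 in both, and the log2 differences of H2-K1 (-0.56) and H2-D1 (-0.48) against mdx and of H2-T23 (-0.28) and Tap1 (-0.43) against control turned negative. A fit of only the 2 groups called 829 genes in Sirt6mKO/mdx against control. With any 1 library left out, calls over all genes ran from 921 to 2326, 252 to 1541 and 212 to 1416, and called members in mdx against control from 0 to 1. Uncalled members changed sign without 1 library: H2-K1 ran from -0.36 to 0.50, H2-D1 from -0.17 to 0.46, H2-T23 from -0.51 to 0.41, Nlrc5 from -0.75 to 0.48 and Tap1 from -0.41 to 0.11 in Sirt6mKO/mdx against mdx; H2-T23 from -0.063 to 0.79, Nlrc5 from -0.44 to 0.064 and Tapbp from -0.10 to 0.39 in mdx against control; and H2-T23 from -0.15 to 0.78, Nlrc5 from -0.94 to 0.29, Tap1 from -0.088 to 0.43 and Tap2 from -0.37 to 0.090 in Sirt6mKO/mdx against control. The causes of these shifts were not tested. Where 1 library of a group remained, it was assumed to vary like the other groups.

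Replicate numbers gave no pairing: same-numbered deviations correlated at -0.128 (control and mdx), 0.119 (control and Sirt6mKO/mdx) and 0.0093 (mdx and Sirt6mKO/mdx). With a replicate block 2415, 1510 and 1404 genes and 1, 0 and 0 members were called. In a fit of control and mdx alone with the numbers crossed, chosen after seeing the data, 2519 genes and 1 member were called, against 2284 genes and 1 member with the numbers uncrossed. Counting error was largest for Nlrc5, and of simulated 2-fold changes 19.4% were called, under a rule that also needs an estimated change of at least 2-fold.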
